A study of Homo sapiens with 12 samples.

Results

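The 7 metallothionein genes MT1A, MT1E, MT1F, MT1G, MT1M, MT1X and MT2A were examined across proliferating and irradiated human fibroblasts. They were chosen by symbol, as 7 of the 16383 genes in the deposited expression table. Metallothioneins are small cysteine-rich proteins that bind zinc and copper through clusters of cysteine side chains, and they also bind toxic metals such as cadmium. When free zinc rises, the zinc-sensing transcription factor MTF1 binds metal response elements upstream of these genes and raises their transcription. Glucocorticoids, oxidants and cytokine signalling are further known inducers, and fibroblasts are known to express MT2A and several MT1 genes.

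The cells were IMR90, an established line of human fetal lung fibroblasts with a finite lifespan, and the assay was RNA sequencing of polyadenylated transcripts. Proliferating cells received neither radiation nor compound. The other cells received 20 Gy of ionizing radiation over 10 min, a dose used to bring them into senescence. DMSO (the vehicle), palbociclib at 2 µM or ruxolitinib at 2 µM was given 4 times afterwards, first on day 4 and then on days 6, 8 and 10. RNA of these irradiated cells was taken on day 11. Palbociclib inhibits the cyclin-dependent kinases CDK4 and CDK6, and ruxolitinib inhibits the Janus kinases JAK1 and JAK2. Each of the 4 groups held 3 libraries, named A116 to A127 in the deposited table. The irradiated vehicle group shares radiation with both inhibitor groups, whereas the proliferating group differs from it in radiation and vehicle together. No harvest day is given for the proliferating group, so its time in culture may also differ. The sources used here do not state whether libraries of a group came from separate cultures, so the p-values measure only the spread between these libraries, which may be technical.

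Between 14106799 and 21762412 reads per library fell on the listed genes. The 2 libraries A126 (proliferating) and A120 (palbociclib) stood further from the other libraries of their group than the rest did, with a chi-square per degree of freedom of 11.92 to 25.14 in the pairs that hold them, against 1.98 to 6.43 in all other pairs. All 10 fibroblast markers, COL1A1, COL1A2 and VIM among them, had a mean of at least 10 normalized counts in every group. They summed to 822420 to 854897 in the proliferating libraries, 408919 to 419590 under vehicle, 651681 to 683887 under palbociclib and 515852 to 520021 under ruxolitinib. Of these 10 markers, 8 were called lower and 2 higher under vehicle than in proliferating cells, and 1 lower and 8 higher under palbociclib than under vehicle. The calls of COL1A2 and VIM were lost under quantile normalization in both comparisons, where the log2 fold change of COL1A2 under vehicle was 0.13, and that of VIM under palbociclib also with every library set to the same total. The part of this shift in the metallothionein results was not tested. Of the leukocyte markers, CD3E and MS4A1 had 3 reads or fewer in every library. The 5 endothelial markers summed to 5.545 to 11.41 normalized counts in proliferating libraries and 22.13 to 59.43 in irradiated ones, and CDH5 had 3 reads or fewer in every library. VWF, the endothelial marker that was tested, was higher under vehicle, palbociclib and ruxolitinib than in proliferating cells (limma adjusted p = 0.00212, 0.00108 and 0.000412), at means of 19.08, 21.16 and 25.99 against 5.036, and the part of this in the metallothionein results was not tested. VWF met the mean of 10 required for testing only through its irradiated libraries. Under quantile normalization the calls under vehicle and ruxolitinib were lost. The epithelial markers summed to 2131 to 2616 normalized counts in proliferating libraries and 1852 to 2105 under vehicle. They summed to 3649 to 4264 under palbociclib and 1864 to 2003 under ruxolitinib. Most came from the keratins KRT8 and KRT18, and CDH1 had 3 reads or fewer in the proliferating and ruxolitinib libraries. Against vehicle, limma called KRT18 (log2 1.13), KRT19 (0.64) and KRT8 (0.59) higher under palbociclib, CLDN4 (-0.92) lower and EPCAM neither. The part of this in the metallothionein results was not tested.

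The 7 genes lie within 1 cluster on chromosome 16, each with 3 exons in GENCODE v44 on GRCh38. MT2A lies at chr16:56608584-56609497, MT1E at chr16:56625475-56627112, MT1M at chr16:56632659-56633981, MT1A at chr16:56638666-56640087, MT1F at chr16:56657731-56660698 and MT1X at chr16:56682470-56684196, all on the plus strand. MT1G, at chr16:56666730-56668065, is on the minus strand. Their coding sequences are each 186 bases long, with 20 cysteine codons (TGC or TGT) among 61 sense codons. Those of the 4 members with enough reads for a test are shown because reads lying wholly within them can be told apart only on the bases that differ. The transcripts are longer, 401 bases in MT2A and 704 in MT1E, so other reads also cover bases outside the coding sequence. Capitals mark bases that differ from MT2A at the same position.
MT2A coding sequence: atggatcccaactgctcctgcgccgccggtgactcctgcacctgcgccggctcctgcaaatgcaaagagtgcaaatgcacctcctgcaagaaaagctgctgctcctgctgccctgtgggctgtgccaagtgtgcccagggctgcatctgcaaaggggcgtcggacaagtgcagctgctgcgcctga
MT1X coding sequence: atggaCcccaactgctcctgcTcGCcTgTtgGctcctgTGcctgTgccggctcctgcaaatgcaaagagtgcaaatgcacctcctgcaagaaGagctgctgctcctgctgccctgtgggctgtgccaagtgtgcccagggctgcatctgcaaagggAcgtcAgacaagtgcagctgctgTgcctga
MT1E coding sequence: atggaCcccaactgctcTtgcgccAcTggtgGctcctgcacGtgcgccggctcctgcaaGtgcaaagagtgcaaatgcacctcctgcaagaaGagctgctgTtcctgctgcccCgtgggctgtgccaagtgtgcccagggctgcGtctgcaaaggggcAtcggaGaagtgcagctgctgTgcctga
MT1G coding sequence: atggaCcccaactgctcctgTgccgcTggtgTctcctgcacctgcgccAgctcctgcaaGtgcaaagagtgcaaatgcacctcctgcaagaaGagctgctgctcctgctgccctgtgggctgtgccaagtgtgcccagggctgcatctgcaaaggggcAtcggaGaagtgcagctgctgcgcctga

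Any pair of the 7 coding sequences was identical at 88.7% to 95.2% of positions. MT1G differed from MT2A at 9 positions, whereas MT1X and MT1E each differed from it at 14. Of all stretches of 50 bases in the 3-exon transcript, 20.2% in MT1G, 18.0% in MT1X, 11.1% in MT2A and 5.3% in MT1E also occur in a transcript of another gene. For MT1G the genes sharing most such stretches were MT1X, MT1XP1 and MT2A. How the authors' counting treated reads that match several genes or lie on the opposite strand is not given in the sources used here, so each single level is uncertain to that extent. MT1X also overlaps a long noncoding RNA gene in GENCODE v44. The sum over the 7 members is given beside each member for this reason.

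The RefSeq promoter table (GRCh38.p14) matched 2 of the 7 members, MT2A and MT1X. Their 250 bases upstream of the annotated start are shown because the metal response element is the binding site of MTF1. Capitals mark each match to the 7-base core of that element, spelled TGCACNC or TGCGCNC on either strand. The MT2A window is chr16:56608334-56608583 and the MT1X window is chr16:56682220-56682469, both on the plus strand.
MT2A upstream window: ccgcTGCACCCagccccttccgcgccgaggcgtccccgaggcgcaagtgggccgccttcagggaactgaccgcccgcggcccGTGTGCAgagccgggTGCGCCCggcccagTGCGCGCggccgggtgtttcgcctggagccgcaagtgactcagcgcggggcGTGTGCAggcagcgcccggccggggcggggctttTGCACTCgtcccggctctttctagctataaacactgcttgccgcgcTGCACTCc
MT1X upstream window: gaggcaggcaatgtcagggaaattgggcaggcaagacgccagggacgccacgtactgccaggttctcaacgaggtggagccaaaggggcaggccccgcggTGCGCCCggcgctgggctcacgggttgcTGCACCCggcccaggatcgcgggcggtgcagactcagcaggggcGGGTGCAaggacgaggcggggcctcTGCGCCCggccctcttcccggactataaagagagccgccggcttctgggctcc

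The MT2A window held 7 cores and the MT1X window 4, and no cores overlapped. Of 35116 RefSeq windows of the same length, 24.8% held at least 1 core. At least as many cores as MT2A were found in 0.0313% of the windows, and at least as many as MT1X in 0.37%. Outside the 7 members, the windows of the metallothionein genes MT1H, MT1B and MT4 held 8, 3 and 3 cores. Those genes had at most 8, 3 and 0 reads in a library, so a high number of cores also occurred beside a low level. A match is a description of the letters and not a measured binding site.

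Summed metallothionein RNA was higher in all irradiated groups than in proliferating cells, and most of it came from MT2A. The unit is the normalized count, which is the number of reads assigned to a gene divided by a scaling factor of its library. The summed level was 6566, 7994 and 6500 normalized counts in the proliferating libraries, and 14163, 16080 and 15091 in the vehicle libraries. It was 13108, 21446 and 16664 under palbociclib and 14332, 14392 and 15968 under ruxolitinib. The highest proliferating library lay below the lowest irradiated library, while the 3 irradiated groups overlapped.

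Group means of the sum were 7020 ± 844 (SD, n = 3) in proliferating cells, 15111 ± 959 under vehicle, 17073 ± 4184 under palbociclib and 14897 ± 928 under ruxolitinib. The vehicle mean was 2.15 times that of proliferating cells. No p-value was computed for the sum. As a share of all reads on listed genes, the 7 members took 0.0362% ± 0.00489 in proliferating cells and 0.0912% ± 0.00481 under vehicle. The palbociclib group was the most spread, and its mean was 1.13 times the vehicle mean with all libraries, 0.99 times without A120 and 1.26 times without A119.

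**Figure D1:**
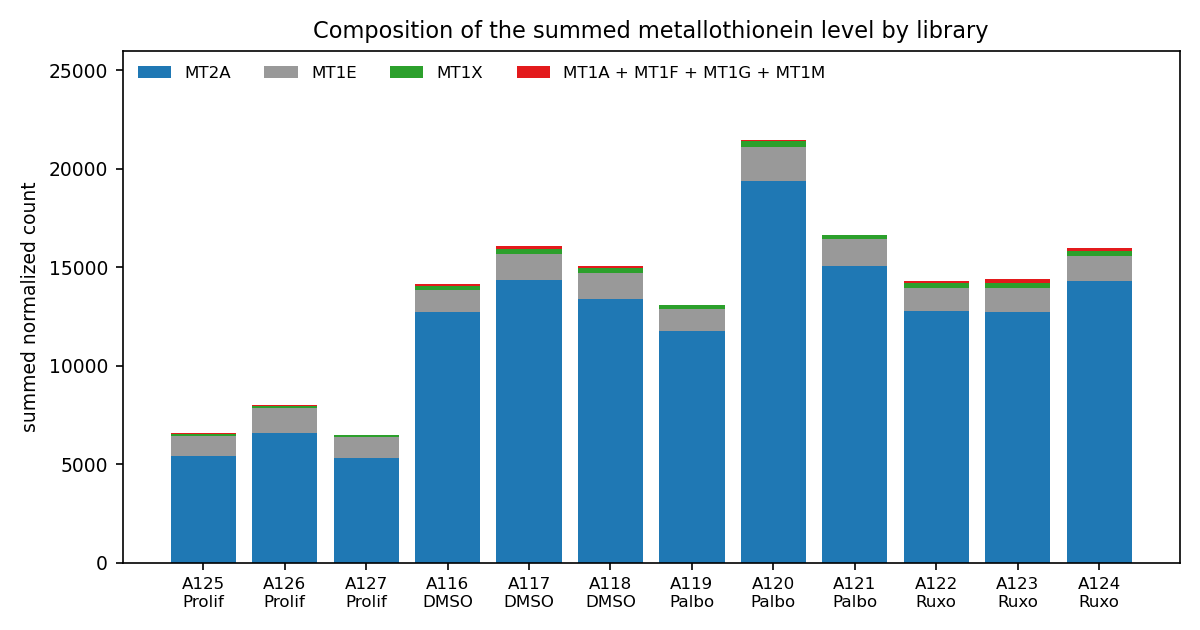
Summed normalized count of the 7 metallothionein genes in each library (one bar per library, stacked by gene). The proliferating libraries reach 6500 to 7994 and the irradiated libraries 13108 to 21446, and MT2A fills most of every bar.

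MT2A made up 82.3% ± 0.151 (SD, n = 3) of the sum in proliferating cells and 89.4% ± 0.474 under vehicle. MT1E made up 16.1% ± 0.240 in proliferating cells and 8.17% ± 0.323 under vehicle. Shares of counts are not corrected for length, and the MT1E transcript is longer, at 704 bases against 401 in MT2A. Per length the MT1E part is therefore smaller than its share of counts. The ranges of these shares did not overlap between proliferating cells and any irradiated group. Among the irradiated groups, the MT2A share was 90.2% ± 0.331 under palbociclib and 89.1% ± 0.516 under ruxolitinib. The palbociclib range of 89.8% to 90.5% met the vehicle range of 88.9% to 89.8% at its edge.

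MT2A is the most widely expressed member and the principal human metallothionein in most cell types. Its level in the proliferating libraries was 5413, 6577 and 5339 normalized counts. In the vehicle libraries it was 12722, 14370 and 13413. The palbociclib libraries gave 11775, 19368 and 15074, and the ruxolitinib libraries 12763, 12759 and 14320. Every irradiated library lay above every proliferating one, and the vehicle libraries fell inside the palbociclib range. Under vehicle MT2A was 2.34 times its proliferating mean, a log2 fold change of 1.23 (SE 0.13, limma adjusted p = 4.27e-07). All fold changes tested here are on the scale of log2(normalized count + 1), and p-values were adjusted by Benjamini-Hochberg over 11242 tested genes.

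MT1X, a zinc-inducible MT1 gene, stood at 106.9, 105.4 and 106.7 normalized counts in the proliferating libraries. In the vehicle libraries it stood at 212.8, 247.4 and 278.7. It read 206.9, 284.6 and 229.2 under palbociclib and 236.9, 250.3 and 249 under ruxolitinib. The proliferating libraries were close together at the bottom, and the irradiated groups overlapped one another. Against proliferating cells, MT1X under vehicle had a log2 fold change of 1.20 (SE 0.12, limma adjusted p = 2.37e-07), a ratio of means of 2.32. The sizes for MT2A and MT1X lay within each other's 95% confidence intervals, 0.95 to 1.51 for MT2A and 0.94 to 1.45 for MT1X.

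MT1E had the second highest level per length of the 7 members, after MT2A, in every group. It stood at 1038, 1301 and 1047 normalized counts in proliferating libraries and at 1115, 1308 and 1285 under vehicle. Palbociclib libraries gave 1107, 1762 and 1342, and ruxolitinib libraries 1185, 1216 and 1248. The 4 groups overlapped. MT1E under vehicle differed from proliferating cells by a log2 value of 0.14 (95% confidence interval -0.14 to 0.41, limma adjusted p = 0.356). That difference passed the threshold without libraries A120 and A126 (log2 0.24, adjusted p = 0.00445) and when every library was scaled to the same total (log2 0.36, adjusted p = 0.0205).

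MT1G, an MT1 gene known from epithelial and tumour cells, was almost absent from proliferating cells. Its level there was 2.075, 1.109 and 0 normalized counts, from 3 reads in all. The vehicle libraries gave 87.11, 117.2 and 90.19, and the ruxolitinib libraries 120.4, 141.4 and 116.4. Under palbociclib it stood at 11.07, 19.7 and 15.1. Palbociclib libraries lay above all proliferating and below all other irradiated libraries, and the vehicle and ruxolitinib ranges overlapped narrowly.

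**Figure D2:**
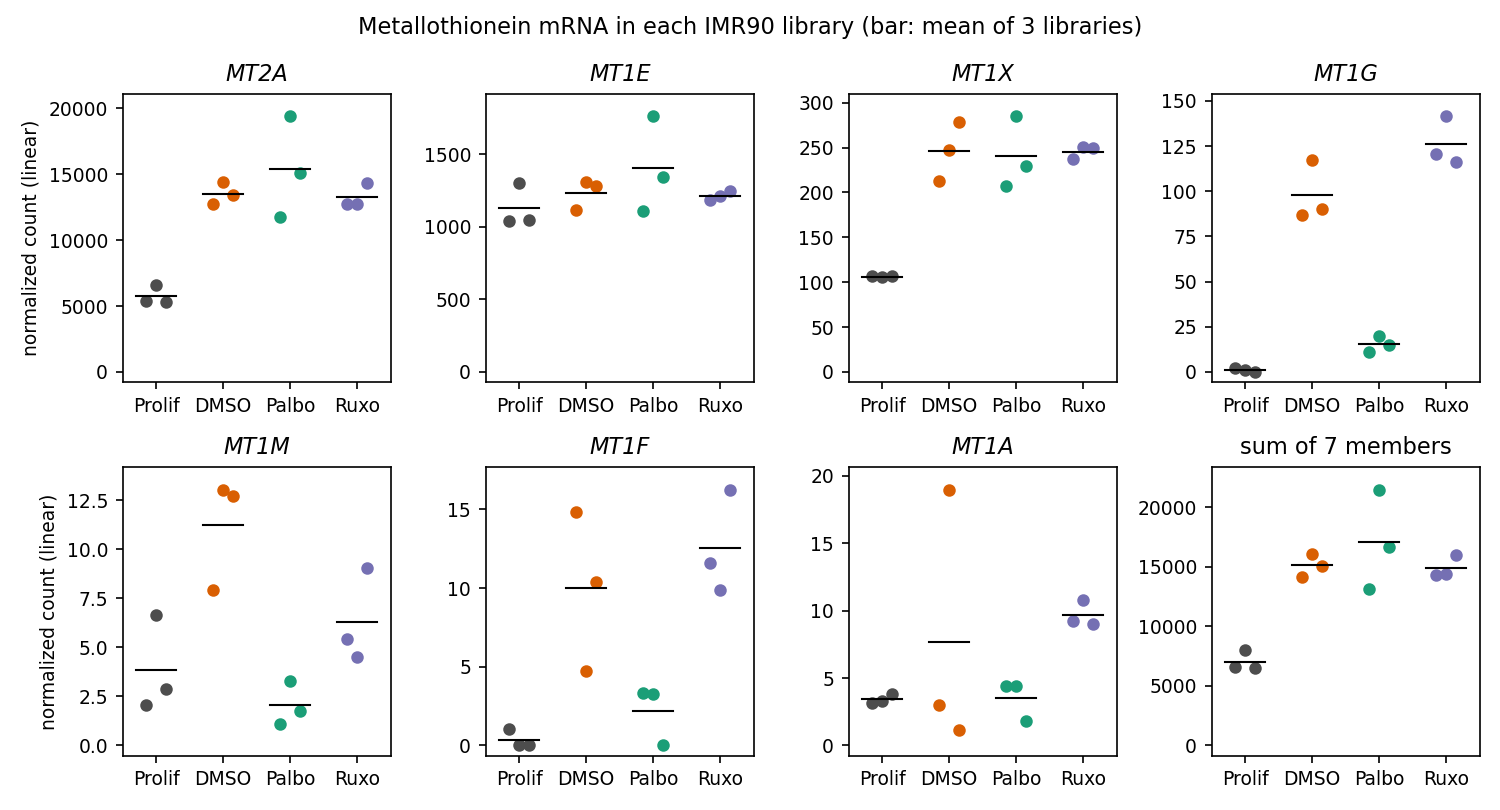
Normalized count (linear axis from 0) of each of the 7 metallothionein genes and of their sum in every library, with one point per library and a bar at the mean of 3. MT2A and MT1X form 2 levels, proliferating and irradiated, whereas MT1G falls from 98.17 under vehicle to 15.29 under palbociclib.

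The vehicle libraries held 265 MT1G reads in all, and the ratio of read rates to proliferating cells was 94.7, with a 95% counting interval of 32.1 to 462. Such intervals cover counting error only. The fitted log2 fold change was 5.72 (SE 0.34, limma adjusted p = 5.74e-10), and it ranged from 4.09 to 7.25 over the 25 alternative settings, since so few proliferating reads leave it dependent on the added constant. Under palbociclib MT1G was 6.42-fold lower than under vehicle, a log2 fold change of -2.63 (SE 0.34, limma adjusted p = 1.81e-05). It kept that direction and its call in 25 of 25 alternatives, between -2.85 and -2.29. A smaller share of cells expressing MT1G and less MT1G RNA per cell cannot be told apart in bulk RNA.

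The macrophage and lysosome marker CD68 moved with MT1G, at 548.7 ± 12.5 (SD, n = 3) normalized counts in proliferating cells, 1232 ± 46.8 under vehicle, 740.6 ± 58.8 under palbociclib and 1093 ± 37.1 under ruxolitinib. The 6 leukocyte markers together summed to 543.7 to 569.6, 1224 to 1308, 697.2 to 805.7 and 1070 to 1149 in those groups, of which CD68 gave most. CD3E and MS4A1 were at or near 0 throughout. The part of such cells in the MT1G result was not tested.

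The other 3 members, MT1F, MT1M and MT1A, had means over the 12 libraries of 6.28, 5.86 and 6.08 normalized counts. They fell below the minimum of 10 set for testing, so 4 of the 7 members were tested. MT1F gave 1.038, 0 and 0 in proliferating libraries, 14.85, 4.735 and 10.41 under vehicle, 3.32, 3.284 and 0 under palbociclib and 11.57, 9.905 and 16.24 under ruxolitinib. Like MT1G, it was low in the proliferating and palbociclib libraries, and these did not overlap with the vehicle libraries. The ratio of MT1F read rates, palbociclib over vehicle, was 0.198 (95% counting interval 0.0670 to 0.487), from 6 reads against 28. Its ratio of vehicle over proliferating cells was 30.0 (4.96 to 1227), from 28 reads against 1.

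MT1M, known for expression in liver and other tissues, gave 2.075, 6.654 and 2.857 in proliferating libraries and 7.919, 13.02 and 12.72 under vehicle. It gave 1.107, 3.284 and 1.777 under palbociclib and 5.401, 4.502 and 9.023 under ruxolitinib. Vehicle libraries lay above all proliferating and palbociclib libraries. The palbociclib over vehicle ratio of MT1M read rates was 0.185 (95% counting interval 0.0629 to 0.451). With no minimum level, limma called MT1F and MT1M higher under vehicle than in proliferating cells (adjusted p = 0.000254 and 0.00859). The same fit called both lower under palbociclib than under vehicle (adjusted p = 0.0132 and 0.00143), and edgeR without a minimum called the same 2 genes in both comparisons.

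MT1A gave 3.113, 3.327 and 3.809 normalized counts in proliferating libraries. The vehicle libraries gave 2.97, 18.94 and 1.156, so that library A117 held 16 of the group's 20 reads. Palbociclib libraries gave 4.427, 4.379 and 1.777, and ruxolitinib libraries 9.259, 10.81 and 9.023. The vehicle libraries spanned all other groups. MT1A was not called by either fit without a minimum in the comparison of vehicle with proliferating cells (adjusted p = 0.660 in limma and 0.206 in edgeR) or of palbociclib with vehicle (0.676 and 0.270).

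Levels of different genes can be compared only per length, here as normalized counts per kilobase of the 3-exon transcript. Under vehicle the order per kilobase was MT2A (33670), MT1E (1755), MT1X (609.7), MT1G (241.8), MT1M (28.19), MT1F (23.52) and MT1A (19.42). The first 4 were separated by more than the spread of their libraries, and the last 3 overlapped. In proliferating cells MT2A, MT1E and MT1X kept the first places, at 14400, 1603 and 263.1, while MT1G stood at 2.614.

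Of the 4 tested members, 3 (MT2A, MT1X and MT1G) were called higher under vehicle than in proliferating cells (limma), and 0 were called lower. Over all tested genes 33.0% were called higher and 39.3% lower in that comparison. The median log2 fold change was 1.21 over the 4 tested members and -0.05 over all tested genes. By library, 5 of the 7 members did not overlap between these groups, a share near the 75.1% of all tested genes. The 7 include MT1A, MT1F and MT1M, which fell below the minimum for testing, whereas the percentage covers tested genes only. The same limit applies to each overlap count of 7 below. In size, the change of MT2A exceeded that of 85.3% of tested genes, the change of MT1X that of 84.7% and the change of MT1G that of 99.9%.

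Against vehicle, 1 of the 4 tested members, MT1G, was called lower under palbociclib and 0 higher, where 22.3% of tested genes were called lower and 26.0% higher. MT2A differed by a log2 value of 0.16 (95% confidence interval -0.11 to 0.44, limma adjusted p = 0.317), MT1E by 0.16 (-0.11 to 0.44, adjusted p = 0.318) and MT1X by -0.04 (-0.30 to 0.22, adjusted p = 0.804). The members that did not overlap were MT1F, MT1G and MT1M, 3 of 7, against 54.8% of tested genes. Library A119 was the lowest and A120 the highest palbociclib library for MT1E, MT1G, MT1M, MT1X and MT2A. Without A119, MT2A and MT1E were called higher under palbociclib, at 0.34 (adjusted p = 0.0107) and 0.32 (adjusted p = 0.0253). Without A120 the MT2A value was -0.0175 (adjusted p = 0.898).

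**Figure D3:**
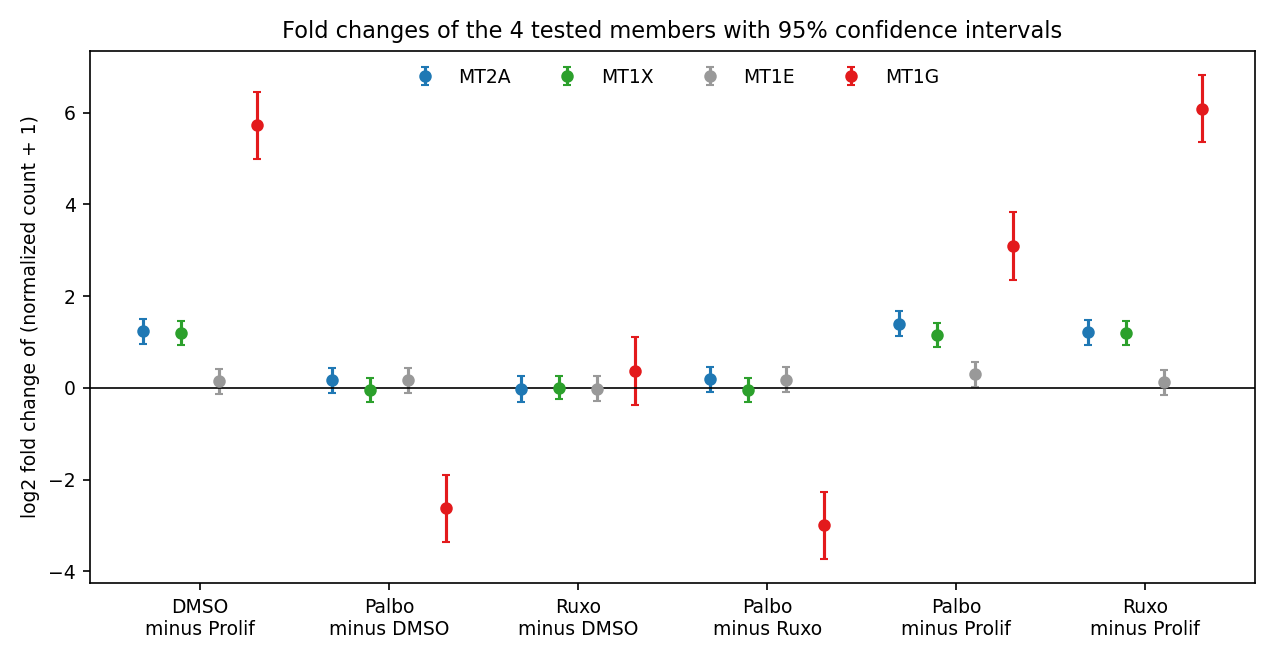
Log2 fold change of (normalized count + 1) with 95% confidence interval for the 4 tested members in the 6 comparisons. MT2A and MT1X lie between 1.16 and 1.39 in the comparisons with proliferating cells and near 0 between irradiated groups, whereas MT1G lies at -2.63 for palbociclib minus vehicle.

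None of the 4 tested members was called under ruxolitinib against vehicle. Counts of called members were 0 by limma, by edgeR and by DESeq2, where limma called 1.10% of tested genes higher and 3.42% lower. At an unadjusted p under 0.05 in limma the count of members was also 0, against 15.8% of tested genes. The log2 differences were -0.02 for MT2A (95% confidence interval -0.30 to 0.25), 0.00 for MT1X (-0.25 to 0.26), -0.02 for MT1E (-0.29 to 0.25) and 0.36 for MT1G (-0.37 to 1.10). None of the 7 members was free of overlap between these groups, against 31.9% of tested genes.

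The inhibitors were given at the same dose and on the same days, so they could be compared directly. MT1G was lower under palbociclib than under ruxolitinib by a log2 fold change of -2.99 (SE 0.34, limma adjusted p = 6.59e-06), an 8.24-fold difference of means. It was 1 of 4 tested members called lower, against 17.6% of tested genes, and 0 were called higher, against 22.8%. MT2A, MT1E and MT1X differed by 0.19, 0.18 and -0.04 (adjusted p = 0.268, 0.280 and 0.802). Without library A119, MT2A (0.37, adjusted p = 0.00856) and MT1E (0.34, adjusted p = 0.0215) were called higher. MT1A, MT1F, MT1G and MT1M did not overlap between the inhibitors, 4 of 7 against 51.8% of tested genes.

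Both inhibitor groups were also set against proliferating cells, which all 3 such comparisons share as control. Under palbociclib MT2A was higher by 1.39, MT1X by 1.16 and MT1G by 3.09 (limma adjusted p = 9.06e-08, 3.16e-07 and 7.18e-07). MT1E was higher by 0.30 (adjusted p = 0.0491), with overlapping libraries, and that call was lost in 15 of 25 alternatives, including the ones without A120 (0.12, adjusted p = 0.291), without A125 (0.24, adjusted p = 0.158) and without A127 (0.25, adjusted p = 0.144). These were 4 of 4 tested members, where 35.2% of tested genes were called higher and 38.6% lower, and 3 of 7 members did not overlap, against 70.9%. Under ruxolitinib MT2A was higher by 1.21, MT1X by 1.20 and MT1G by 6.08 (adjusted p = 5.34e-07, 2.29e-07 and 2.63e-10), which made 3 of 4 called higher against 32.6% of tested genes and 0 called lower against 39.5%. In that comparison 5 of 7 members did not overlap, against 76.2% of tested genes. The counts of called members against proliferating cells include MT1G, which met the minimum mean for testing only through its irradiated libraries.

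The further metallothionein genes MT1B, MT1H, MT3 and MT4 had means under 10 normalized counts and were left out of the main test. MT1H had 0 reads in the proliferating libraries, 10 under vehicle, 5 under palbociclib and 16 under ruxolitinib. With no minimum level it was called higher than in proliferating cells under vehicle (adjusted p = 0.0287 in limma and 0.0131 in edgeR) and under ruxolitinib (0.00280 and 0.00564), and MT1B was not called in the 6 comparisons of either fit. Of the 10 MT1H reads under vehicle, library A116 held 8 and A117 held 0, so the vehicle libraries overlapped with the proliferating ones. MT1JP, annotated as a long noncoding RNA, lies outside the gene lists, was added after its values were seen and had at most 5 reads in a group. MT1L, a metallothionein pseudogene that is annotated as a long noncoding RNA in GENCODE v44, was tested. It gave 168.1, 228.5 and 180.9 normalized counts in proliferating libraries and 823.5, 822.8 and 948.2 under vehicle. The vehicle libraries were all above the proliferating ones, with a log2 fold change of 2.17 (SE 0.11, limma adjusted p = 6.43e-11). Palbociclib and ruxolitinib means were 880 ± 103 and 769.2 ± 32.5 (SD, n = 3), and neither was called against vehicle (adjusted p = 0.885 and 0.517). MT4, a metallothionein of stratified epithelium, had 0 reads in every library.

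Some zinc carriers were called higher and others lower beside the metallothioneins. Of 6 tested genes of the MTF1 and zinc exporter list, 3 were called higher and 1 lower under vehicle than in proliferating cells, against 33.0% and 39.3% of all tested genes. SLC30A1, the plasma membrane zinc exporter and a known MTF1 target, stood at 250 ± 38.6 normalized counts in proliferating cells and 625.4 ± 56.5 under vehicle (SD, n = 3). That is a log2 fold change of 1.33 (limma adjusted p = 2.00e-07), close in size to those of MT2A and MT1X. Under palbociclib SLC30A1 was lower than under vehicle by -0.35 (adjusted p = 0.0386), a call that 10 of 25 alternatives lost, among them those without A116, A117, A118, A120, A121 or A123. In that comparison 3 genes of the list were called higher and 1 lower, against 26.0% and 22.3% of all tested genes. SLC30A6 (0.34, adjusted p = 0.000843) and SLC30A9 (0.25, adjusted p = 0.00100) were higher, and each lost the call in 1 of 25 alternatives, that with every library set to the same total. The call of SLC30A5 (0.16, adjusted p = 0.0488) was lost in 17 of 25, 8 of which left out 1 library. MTF1 itself was higher under vehicle by 0.25 (adjusted p = 0.00656), and SLC30A4, an exporter into vesicles, by 0.91 (adjusted p = 0.00122). The lower call, SLC30A9 at -0.20, was lost under 3 other scalings of the libraries and reached 0.03 in one of them.

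Of 9 tested zinc importers of the SLC39 family, 3 were called higher and 1 lower under vehicle than in proliferating cells, against 33.0% and 39.3% of all tested genes. SLC39A8, which carries zinc, manganese and cadmium into cells, stood at 9.324 ± 5.47, 40.77 ± 7.71, 17.59 ± 1.12 and 28.87 ± 3.27 normalized counts in proliferating, vehicle, palbociclib and ruxolitinib libraries (SD, n = 3). It was higher under vehicle by 2.14 (limma adjusted p = 2.67e-05) and lower under palbociclib than under vehicle by -1.15 (adjusted p = 0.00954). Its proliferating mean lay below the minimum of 10, so SLC39A8, 1 of the 3 higher calls, met that minimum only through its irradiated libraries. The palbociclib call was lost in 1 of 24 alternatives, quantile normalization (limma adjusted p = 0.0772). SLC39A13, a zinc carrier of the secretory pathway, was higher under vehicle by 0.66 and higher again under palbociclib by 0.46 (adjusted p = 7.41e-07 and 0.000108). SLC39A9 was higher under vehicle by 0.36, whereas the lower call of SLC39A14 at -0.14 was lost in 12 of 25 alternatives, 5 of which left out 1 library, and its value reached 0.09 in others.

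Copper handling genes are a second group with a direct link to metallothioneins, which store copper. Of 10 tested, 8 were called higher under vehicle than in proliferating cells and 0 lower, against 33.0% and 39.3% of all tested genes. The copper importer SLC31A1 rose from 1587 ± 153 to 2566 ± 68.0 normalized counts (SD, n = 3), a log2 fold change of 0.70 (limma adjusted p = 9.89e-08). Its relative SLC31A2 was higher by 0.87, and the copper exporter ATP7B by 0.96. The call of ATP7A (0.35) was lost in 5 of 25 alternatives, among them those without A126, A116, A117 or A118, with an adjusted p of up to 0.189. That of SCO2 (0.99) was lost in 4 of 24, among them those without A125, A127 or A117 and quantile normalization, which put it at -0.07, and that of ATOX1 (0.28) in the one without A125 (adjusted p = 0.0608). SCO2 had a proliferating mean of 9.368, so it met the minimum of 10 for testing only through its irradiated libraries. The median log2 fold change of the list was 0.31, beside 1.21 for the 4 tested metallothioneins and -0.05 for all tested genes. Ruxolitinib gave 0 limma calls against vehicle in all 3 metal lists, where 1.10% of all tested genes were called higher and 3.42% lower.

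**Figure D4:**
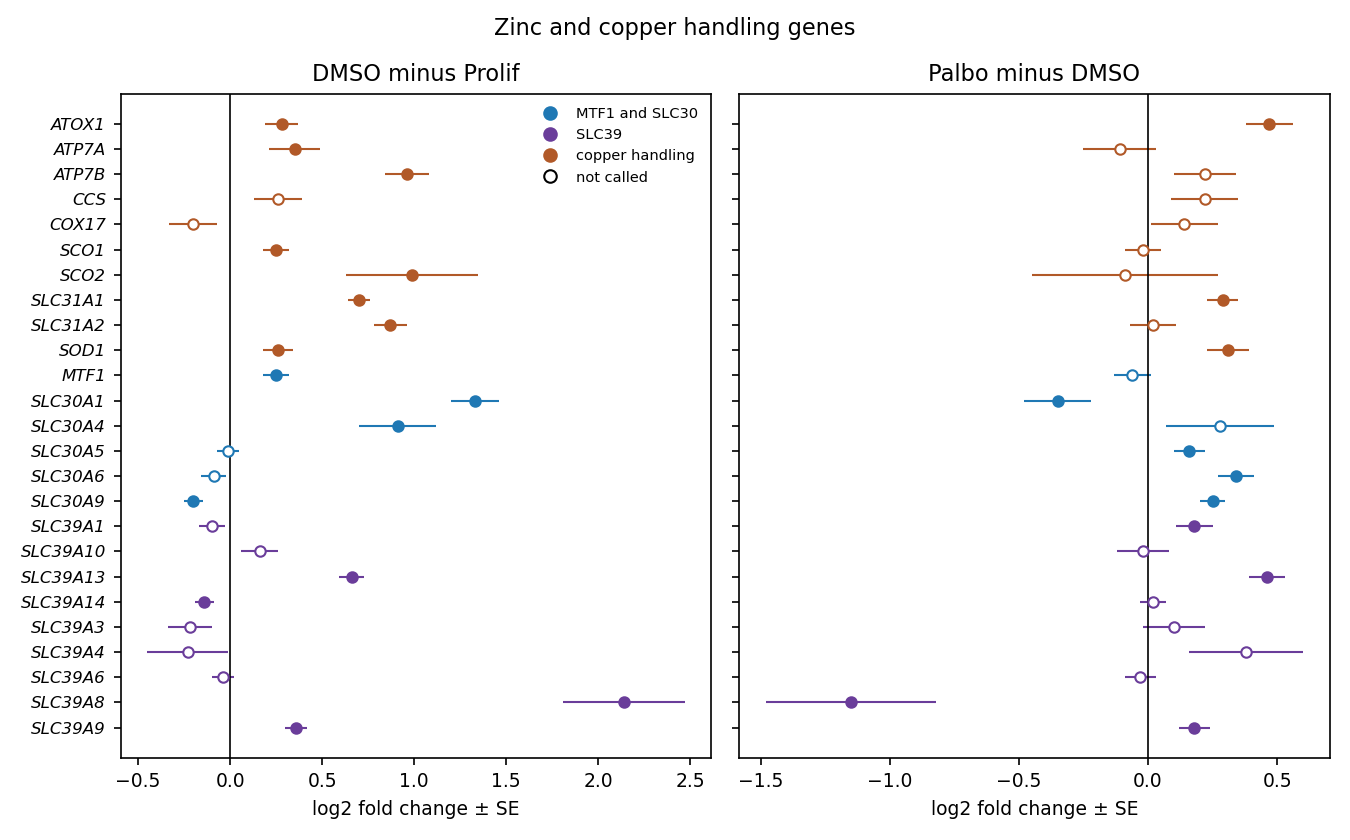
Log2 fold change with its standard error for the tested zinc and copper handling genes, vehicle minus proliferating (left) and palbociclib minus vehicle (right). Filled points were called at an adjusted p under 0.05, and SLC39A8 and SLC30A1 lie furthest right at 2.14 and 1.33 on the left panel.

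Lists of genes that respond to other known metallothionein inducers were counted in the same way, where 33.0% of all tested genes were called higher and 39.3% lower under vehicle than in proliferating cells. Under vehicle against proliferating cells, 5 of 11 tested glucocorticoid-responsive genes were called higher and 3 lower, including FKBP5 at -2.06 and TSC22D3 at 1.16. MAOA, 1 of the 5, had a proliferating mean of 5.43 and met the minimum of 10 for testing only through its irradiated libraries. Of 9 tested heat shock genes 2 were called higher and 5 lower. Oxidant-responsive genes gave 2 higher and 2 lower of 6, with HMOX1 at 1.36 and NQO1 at -0.96. The 6 genes of the STAT3 list gave 3 higher and 3 lower. Of the lower calls, that of SOCS3 (-0.22, limma adjusted p = 0.0477) was lost in 17 of 25 alternatives, 8 of which left out 1 library. Against vehicle, ruxolitinib gave 4 lower and 0 higher limma calls in the STAT3 list, where 3.42% and 1.10% of all tested genes were called. It gave 3, 0 and 2 lower and 0 higher in the glucocorticoid, heat shock and oxidant lists. The calls of STAT3, SGK1, SLC7A11 and CRISPLD2 were lost in 4, 6, 8 and 9 of 25 alternatives. Palbociclib gave 4 lower and 0 higher in the STAT3 list, against 22.3% and 26.0% of all tested genes. It gave 4, 1 and 2 lower and 4, 5 and 2 higher in the glucocorticoid, heat shock and oxidant lists. Of the higher heat shock calls, those of BAG3, HSP90AA1, HSF1 and HSPA8 were lost in 2, 2, 1 and 1 of 25 alternatives. The part of these inducers in the metallothionein levels was not tested.

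The genes closest to the summed metallothioneins in pattern were found by the root mean square difference of their centred log2 levels over the 12 libraries. They were RHBDD2 (0.097), TUBA4A (0.109), NME3 (0.116), MGST2 (0.122) and HBEGF (0.123). RHBDD2, a rhomboid-family membrane protein, had means of 542.1, 1178, 1327 and 1159 normalized counts in proliferating, vehicle, palbociclib and ruxolitinib libraries. Of the tested members themselves, MT2A lay at 0.054, MT1X at 0.144, MT1E at 0.422 and MT1G at 2.081. MT1X, MT1E and MT1G were thus further from the sum than these 5 genes. MT2A was nearer, but it made up 82.3% to 90.2% of the sum in the group means, so its nearness is built in.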

How the data were processed

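Polyadenylated RNA of 12 IMR90 libraries in 4 groups of 3 was analysed, from the deposited table of 16383 genes. The deposited values are a signal per gene: reads divided by a size factor of the library, by the authors. The submitters' processing notes name Trimmomatic 0.38.1, HISAT2 2.2.1, featureCounts 2.0.3, DESeq2 2.11.40.8 and the build GRCh38 (hg38). The annotation and strand setting of the counting are not given in the sources used here. All 160380 values above 0 were whole multiples, within 0.01 reads, of 1 step per library, which gave back the reads. Columns name a group but no replicate number, and the labels give no batch.

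The main test was limma 3.58.1 (trend) on log2(value + 1) with 4 group means, over the 11242 genes with a mean of at least 10, Benjamini-Hochberg adjusted and called under 0.05, in R 4.3.3. It was tested on simulated data. Whole reads went into edgeR 4.0.16 (quasi-likelihood, TMM) and DESeq2 1.42.0 as alternatives. Further alternatives were other constants, minimum levels and scalings, each library left out, and, chosen after seeing the data, edgeR without a minimum, both outlying libraries left out and a sum over 13 metallothionein rows. Intervals of read ratios are exact at 95%. The members and gene lists were chosen with earlier results of these data known. The genes named are the members, the genes of the lists and the 5 genes nearest to the sum. The row MT1JP and, in the closing observations, the 5 genes nearest to MT1G were added after their values were seen. The zinc, copper, glucocorticoid, heat shock, oxidant, STAT3 and cell marker lists came from general knowledge.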

Additional observations from a re-analysis of the deposited data

Results flagged for a closer look

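MT1G differed between the inhibitor groups: its change against vehicle was -2.63 under palbociclib and 0.36 under ruxolitinib on the log2 scale, and the test of the difference gave -2.99 (limma adjusted p = 6.59e-06). All 3 palbociclib libraries lay below all 3 ruxolitinib libraries. Both changes share the vehicle libraries as control. The value of the difference does not use them, but its p-value rests on a spread estimated over all 12 libraries.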

How the results depend on the processing

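No paired analysis was possible because the columns carry no replicate number. Without a minimum level, called members went from 3 to 5 higher for vehicle against proliferating cells, from 1 to 3 lower for palbociclib against vehicle and from 1 to 3 lower for palbociclib against ruxolitinib, since MT1F and MT1M were then tested. edgeR without a minimum (added after seeing the data) gave 5, 3 and 2. Of the 15125 genes tested without a minimum, limma called 4640 higher, 2799 lower and 2252 lower in these comparisons, and edgeR 4614, 2764 and 2223. Leaving out 1 library at a time gave 0 to 2 members higher for palbociclib against vehicle and against ruxolitinib. The 2 were called without A119, where 2991 and 2688 of 11242 tested genes were called higher. Scaling to the same total moved the ratio of the sum to 2.52 for vehicle over proliferating cells and 0.97 for palbociclib over vehicle. Quantile normalization gave 2.62 and 0.92, with 0.98 for palbociclib over ruxolitinib and 2.45 for ruxolitinib over proliferating cells. The same-total scaling also moved the median log2 change of all tested genes from -0.05 to 0.18 (vehicle against proliferating cells) and from 0.02 to -0.21 (palbociclib against vehicle), and the higher and lower calls from 3714 and 4420 to 5273 and 2970 and from 2927 and 2505 to 940 and 5170. The cause of these moves was not tested.

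Signs of the members turned in differences that were not called. For palbociclib against vehicle, the same total gave -0.0656 for MT1E and -0.0642 for MT2A, and quantile normalization gave 0.0833 for MT1X and -0.17 for MT2A. Without A120 and A126 (added) MT1E was at -0.0164 and MT2A at -0.0175. For ruxolitinib against vehicle MT1X was at -0.0220 with the same total and -0.00108 with edgeR without a minimum. For palbociclib against ruxolitinib, the same total gave -0.0208 for MT1E and -0.0149 for MT2A, and quantile normalization gave 0.0318 for MT1X and -0.0637 for MT2A.

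Leaving out 1 library at a time put MT1E between -0.0164 and 0.32, MT1X between -0.17 and 0.0608, MT2A between -0.0175 and 0.34 (palbociclib against vehicle); MT1E between -0.0923 and 0.0231, MT1X between -0.0976 and 0.0961, MT2A between -0.0796 and 0.0217 (ruxolitinib against vehicle); MT1X between -0.17 and 0.0578 (palbociclib against ruxolitinib). MT1G kept its direction and its call in every alternative for each comparison in which it was called. With 3 or fewer MT1G reads in the proliferating libraries, depth limits the size of its change there, and the levels of MT1A, MT1F and MT1M rest on 1 to 44 reads a group.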

Other observations

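MT1G was the member least like the sum, so the genes nearest to MT1G itself were looked up after its values were seen. By the same root mean square measure over the 12 libraries they were PDE4C (0.242), a cyclic AMP phosphodiesterase, EHF (0.384), an epithelial ETS transcription factor, and GDF15 (0.525), a stress-induced cytokine. SLC16A6 (0.548), a monocarboxylate carrier family member, and C3 (0.577), the central complement component, followed. PDE4C means were 3.843, 233, 42.13 and 284.8 normalized counts in proliferating, vehicle, palbociclib and ruxolitinib libraries. GDF15 means were 121.6, 4447, 925.9 and 4146, and C3 means were 12.2, 679.8, 68.16 and 701. These genes were chosen for this pattern, so their levels are a description.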
